A study of Homo sapiens with 12 samples.

Results

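Cells of the A375 line that lack FTSJ1 were set against A375 control cells, both grown without added selenite, by counting ribosome footprints per gene. A375 is an established human melanoma line. The knockout group and the control group held 3 libraries each, of 12 in the series, and the other 6 libraries were the same 2 genotypes grown with sodium selenite, which supplies selenium, at 30 nM. The genotype label reads FTS1 KO and WT, the series text names FTSJ1, and the labels name only 1 knockout line, KO1, without saying how it was made or whether it is a clone. Loss of FTSJ1 and any other difference between that line and the control cells therefore cannot be told apart. Of 13074 genes in the table, 10467 passed a filter on low counts and were tested.

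FTSJ1 places a methyl group on ribose in the anticodon loop of certain tRNAs, with the partners WDR6 and THADA at different positions. These marks help a tRNA read its codons, and a mark of this kind lies on the tRNA that inserts selenocysteine, the amino acid of selenoproteins. A ribosome footprint is the piece of mRNA that a ribosome shields from nuclease. The footprint count of a gene rises with more mRNA or with more ribosomes on each mRNA, and these were not separated here. In bulk libraries such as these, fewer cells that express a gene and less of it per cell cannot be told apart either.

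The knockout libraries held 1114731 to 1493468 counts and the control libraries 1378961 to 1497309. In a single library 3 counts were thus worth 1.99 to 2.703 CPM. Where a group had no count, the floor was taken as 3 counts over its libraries together. CPM is the count per 1000000 counts of the library, with library sizes scaled by the trimmed mean of M-values (TMM). The first principal component of the 6 libraries carried 63.6% of the variance and separated the genotypes. Markers of the pigment-cell lineage were partly present: the neural-crest factor SOX10 had 269.9 ± 43.5 CPM in knockout cells and 501 ± 16.6 CPM in control cells and VIM 2510 and 2329 CPM. Of 7 tested markers of that list 0 rose and 5 fell, with a median log2 fold change of -0.89, and VIM was the 1 above 0. Of the other markers of that list PMEL, MLANA, TYR and TYRP1 were not in the table analysed here and DCT was below the filter. Of 16 markers of epithelial, blood, vessel, liver, glial and fibroblast cells only 5 were in the table. The level of the others is not known from it. Of these 5 only KRT14 and PDGFRB passed the filter. KRT14 had 1.31 ± 0.586 CPM in knockout cells and 7.03 ± 0.995 CPM in control cells. The summed level of KRT14 and PDGFRB was 27.2 to 45.1 CPM in knockout and 30.0 to 30.5 CPM in control libraries.

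FTSJ1 itself, at chrX:48476199-48486364 (GRCh38.p14), had 0, 6.31 and 1.47 CPM in knockout cells, against 54.7, 51.6 and 45.4 CPM in control cells. The knockout libraries held 9 counts of it in all, the control libraries 217, and the highest knockout library lay below the lowest control library. Its log2 fold change was -4.41 ± 0.54 (knockout minus control, with its standard error), adjusted p = 5.0e-05. Leaving out knockout replicate 1 gave -3.75, and leaving out knockout replicate 2 gave -5.98. All adjusted p-values are from edgeR quasi-likelihood tests, Benjamini-Hochberg adjusted over the 10467 genes, and a gene is called at an adjusted p under 0.05. Among its partners, WDR6 rose (log2 fold change 0.49 ± 0.12, adjusted p = 0.0024). THADA had 122 ± 15.9 CPM in knockout cells and 128 ± 3.69 CPM in control cells (SD, n = 3 each, as in all such pairs below) and was not called. Of the 5 tested genes on either side of FTSJ1, TIMP1, an inhibitor of matrix metalloproteinases that lies 894 kb before it, rose, with 1177, 1306 and 1107 CPM in knockout cells, against 455, 442 and 474 CPM in control cells. RBM3, a cold-induced RNA-binding protein gene 98.3 kb after it, fell, with 276 ± 5.66 CPM in knockout cells and 404 ± 24.5 CPM in control cells. The remaining 8, PORCN and EBP next to FTSJ1 among them, were not called.

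Of all genes tested 23.9% were called, 1240 (11.8%) higher and 1261 (12%) lower in knockout cells. Most differences were moderate. Of the higher genes 375 differed at least 2-fold and 103 at least 4-fold, and of the lower genes 443 and 125, while 37.3% of the higher and 30.5% of the lower calls were under 1.5-fold. The genes called higher held 22.4 to 22.5% of the footprints in the knockout libraries and 14.7 to 15.0% in the control libraries, and those called lower 11.7 to 11.8% and 19.5 to 19.6%. Ranges of the 3 libraries did not overlap for 39.7% of all genes, so such a gap alone is common. Among called genes they did not overlap for 97.6% of the higher and 96.5% of the lower. A gap in a called gene below thus adds little to its call. With each of the 6 libraries left out in turn, 902 to 1079 genes were called higher and 957 to 1080 lower.

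**Figure D1:**
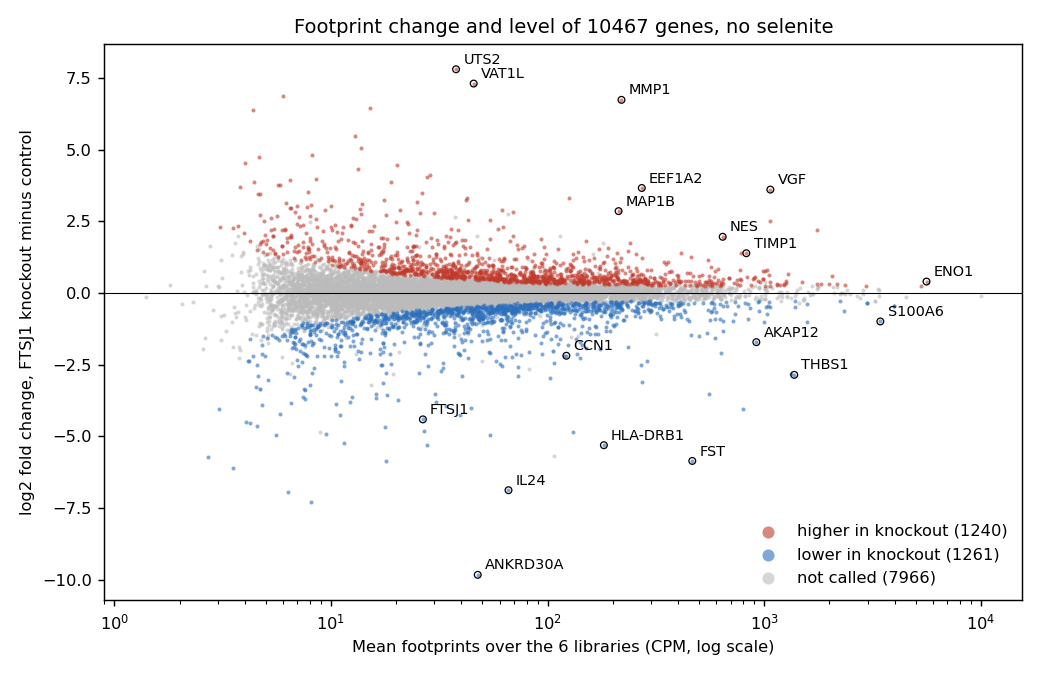
Each point is a gene, with its mean footprint level over the 6 libraries without selenite (CPM, log scale) on the x axis and its fitted log2 fold change, knockout minus control, on the y axis. Genes called higher (1240) and lower (1261) lie at all levels, and fitted values of genes with few counts in a group, such as UTS2 and ANKRD30A, depend on the prior count.

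Among the 10 most abundant genes that were called, changes were modest in fold. That they exceeded the spread between replicates follows from the choice of called genes. ENO1, the glycolytic enolase, had 6163, 6467 and 6522 CPM in knockout cells, against 4794, 4931 and 4795 CPM in control cells, 1.32-fold higher. S100A6, a calcium-binding protein, had 2229, 2196 and 2472 CPM in knockout cells, against 4429, 4387 and 4901 CPM in control cells, and each knockout library held about as little as the next. ANXA1, a phospholipid-binding annexin, had 1834 ± 119 CPM in knockout cells and 2849 ± 45.2 CPM in control cells (log2 fold change -0.64 ± 0.09, adjusted p = 2.9e-07). H4C14 and H4C15, identical histone H4 genes, carried the same counts in every library and are 1 measurement, which fell (-0.45 ± 0.09). The same holds for the H2A genes H2AC18 and H2AC19 (-0.36 ± 0.10). How the authors assigned reads shared by such copies is not given in the sources used here.

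The largest rises were in genes that were almost silent in control cells. Where a group held 1 to 3 counts, counts were divided by the summed library sizes and their ratio has an exact Clopper-Pearson interval, which covers counting error only. VAT1L, a relative of the vesicle membrane protein VAT1 that is known from neurons, had 86.3, 98.2 and 87.6 CPM in knockout cells, against 0.667, 0.726 and 0 CPM in control cells. That is 358 counts over the knockout libraries and 2 over the control libraries, a ratio per depth of 193 with a 95% interval of 53.1 to 1600.4. TMEM158, a membrane protein gene known to be induced by RAS signalling, had 117 counts over the knockout libraries and 1 over the control libraries, a ratio per depth of 126 with a 95% interval of 22.2 to 5027. NLRP2, an inflammasome-related gene of the NLR family, had 105 counts over the knockout libraries and 3 over the control libraries, a ratio per depth of 37.8 with a 95% interval of 12.6 to 186. All 3 were called (adjusted p = 1.8e-18, 1.9e-12 and 2.2e-11).

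Other large rises started from more than 3 counts over the control libraries, in some genes only a few more. BARX1, a homeobox factor of craniofacial and stomach mesenchyme, had 17.9, 26.1 and 32.4 CPM in knockout cells, against 0.667, 1.45 and 1.42 CPM in control cells (log2 fold change 4.32 ± 0.47, adjusted p = 3.1e-09). ACTL8, an actin-like gene otherwise known from testis, had 52.5, 43.3 and 67.7 CPM in knockout cells, against 0.667, 5.08 and 3.55 CPM in control cells. GPC4, a heparan sulfate proteoglycan of the cell surface, had 41.8, 30.6 and 34.6 CPM in knockout cells, against 2.0001, 1.45 and 3.55 CPM in control cells. BARX1 was below 3 counts in every control library, ACTL8 in control replicate 1 and GPC4 in control replicate 2. That the groups of these genes do not overlap was part of how they were chosen. EEF1A2, the elongation factor 1A isoform of muscle and neurons, had 446, 514 and 554 CPM in knockout cells, against 40.7, 38.5 and 39.7 CPM in control cells, a 12.7-fold rise (log2 fold change 3.67 ± 0.12, adjusted p = 1.2e-23). COLEC12, a scavenger receptor with a collagen-like stalk, had 77.7 ± 10.98 CPM in knockout cells and 7.6995 ± 1.19 CPM in control cells. IL17RD, a feedback inhibitor of FGF receptor signalling, had 31.97 ± 5.07 CPM in knockout cells and 3.27 ± 1.49 CPM in control cells. COLEC12 and IL17RD are both proteins of the cell surface, as is the next. CDCP1, a transmembrane substrate of SRC kinases, had 79.02, 78.4 and 72.1 CPM in knockout cells, against 8.67, 7.99 and 7.09 CPM in control cells (log2 fold change 3.25 ± 0.21, adjusted p = 1.1e-15). QPRT, an enzyme that feeds quinolinate into NAD synthesis, had 45.04 ± 7.46 CPM in knockout cells and 4.92 ± 0.849 CPM in control cells.

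The largest falls left many genes at or near the limit of detection in knockout cells. ANKRD30A, an ankyrin-repeat gene known as a breast differentiation antigen, had 0 counts over the knockout libraries and 407 over the control libraries, which is lower by at least 126-fold if the floor is 3 counts in the 3 libraries together. SMOC1, a secreted modular protein of basement membranes, had 2 counts over the knockout libraries and 152 over the control libraries, a ratio per depth of 0.0142 with a 95% interval of 0.001703 to 0.0522. ABCA8, a lipid transporter, had 2 counts over the knockout libraries and 97 over the control libraries, a ratio per depth of 0.0222 with a 95% interval of 0.00266 to 0.0825. Both were called (adjusted p = 4.6e-12 and 1.8e-09).

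ITIH5, a hyaluronan-binding protein of the inter-alpha-trypsin inhibitor family, had 3.32, 2.703 and 3.68 CPM in knockout cells, against 112, 105 and 97.9 CPM in control cells. PLAC8, a small cysteine-rich protein gene, had 1.33, 1.802 and 2.21 CPM in knockout cells, against 49.3, 44.3 and 62.4 CPM in control cells. GDA, the guanine deaminase, had 1.99, 0.901 and 0.736 CPM in knockout cells, against 34.7, 33.4 and 34.8 CPM in control cells. Knockout libraries held each of these at a few CPM or less. TMEM47, a membrane protein gene of cell junctions, had 0.988 ± 0.306 CPM in knockout cells and 21.1 ± 2.29 CPM in control cells. OLFML2A, a secreted olfactomedin-like protein gene, had 4.07 ± 2.35 CPM in knockout cells and 64.03 ± 5.43 CPM in control cells. ABI3BP, a matrix protein gene, had 4.06 ± 0.417 CPM in knockout cells and 56.9 ± 2.75 CPM in control cells (log2 fold change -3.79 ± 0.26, adjusted p = 1.4e-14). Each of these 3 was a fraction of its control level in all knockout libraries. ANO1, a calcium-activated chloride channel, had 1.26 ± 1.099 CPM in knockout cells and 19.9 ± 6.08 CPM in control cells. CALB2, the calcium-binding protein calretinin, had 1.59 ± 1.01 CPM in knockout cells and 22.8 ± 6.54 CPM in control cells. The class II HLA genes HLA-DQA1 and HLA-DQB1 were also among the 20 largest falls, at -5.32 ± 0.39 and -4.27 ± 0.28, or -6.09 and -4.88 without knockout replicate 2.

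PTPRJ, a receptor-type tyrosine phosphatase, stood apart from these. It had 64.4, 108 and 105 CPM in knockout cells, against 497, 1448 and 2565 CPM in control cells, so its control libraries differed widely among themselves. Its log2 fold change of -4.03 ± 1.11 (adjusted p = 0.03) was not called without any 1 of knockout replicates 1 to 3 or control replicates 2 and 3, where it ranged between -4.45 and -3.41 over the 6 libraries left out. With selenite the log2 fold change was 0.20.

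**Figure D2:**
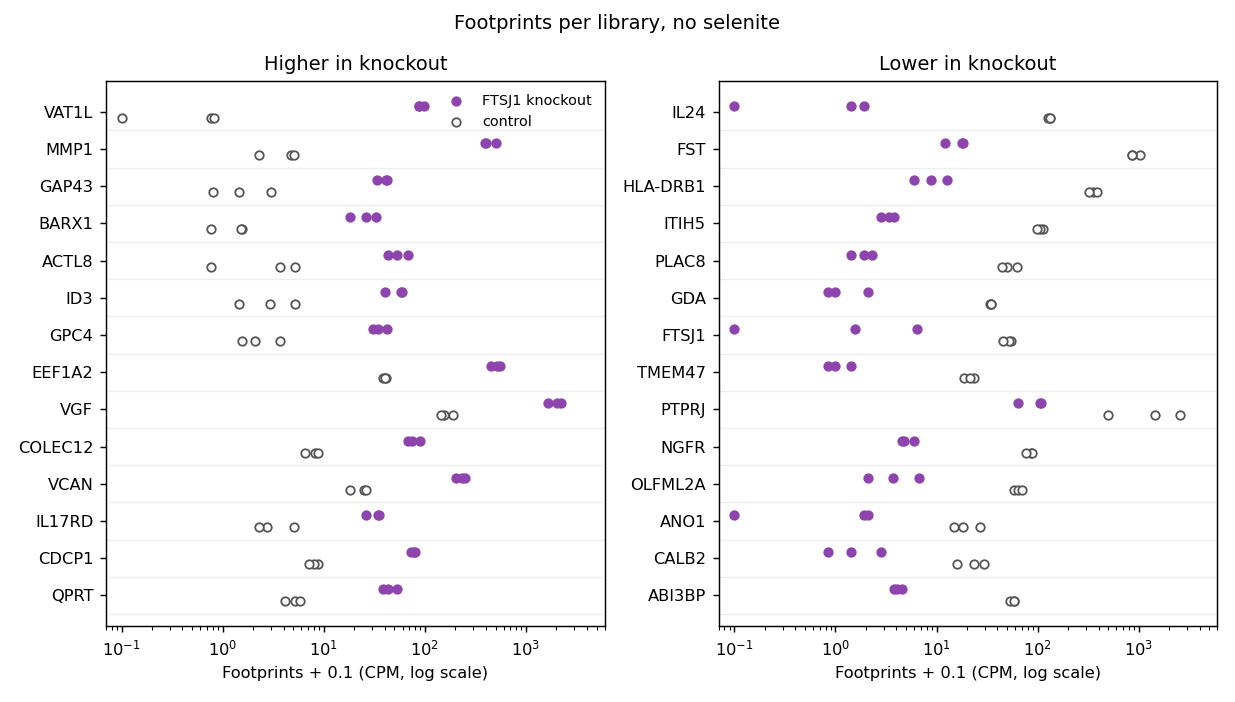
Footprints per library (CPM plus 0.1, log scale) for 14 of the 20 largest rises and 14 of the 20 largest falls in knockout cells without selenite, with each filled point a knockout library and each open point a control library. The gap between the 2 groups was part of how these genes were chosen, and PTPRJ shows a wide spread among control libraries.

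Genes on chromosome 19 were lower in knockout cells than genes on any other chromosome, a pattern noticed after the values were seen. Of 655 tested genes on it, 201 (30.7%) were called lower and 19 (2.90%) higher, against 3.81 to 18.8% lower and 8.36 to 16.8% higher on the other chromosomes. The median log2 fold change was -0.41, a level 24.8% below control, with 81.1% of the genes below 0. Medians of the other chromosomes were -0.12 to 0.11. Chromosome 19 held 15.9% of all lower calls with 6.26% of the tested genes, and without it 1221 genes were higher and 1060 lower of 9812.

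The lower level ran along most of the chromosome. Taken in order of position in 26 runs of 25 tested genes, 25 runs had a median below 0, and the runs spanned -0.68 to 0.0015. In the highest, between CCDC124 and COPE at chr19:17933015-18919387, 6 genes rose and 2 fell. The lowest was the run between CIC and TOMM40 at chr19:42268530-44903689 (GRCh38.p14), in which 10 of 25 genes fell and 0 rose. Of 25 runs in the genome with a median under -0.3, 19 lay on chromosome 19. Of its 201 lower calls 60 were under 1.5-fold and 52 were 2-fold or more, and the interquartile range of all 655 genes lay between -0.66 and -0.09, against -0.26 and 0.30 for genes elsewhere.

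Single libraries showed the same. Counts on chromosome 19, as a ratio to counts on chromosomes 16, 17 and 22, which are also dense in genes, were 0.344, 0.378 and 0.359 in the knockout libraries and 0.487, 0.483 and 0.473 in the control libraries. With selenite, in 6 further libraries, the ratios were 0.394, 0.424 and 0.434 in knockout and 0.452, 0.499 and 0.474 in control cells, so the genotypes did not overlap there in this ratio. As a plain share of all counts chromosome 19 did overlap with selenite, at 4.903, 5.47 and 5.57% in knockout and 4.86, 5.47 and 5.21% in control libraries, and 114 of its genes were called higher and 96 lower. Without selenite the plain share was 3.99, 4.54 and 4.27% in knockout and 5.37, 5.33 and 5.21% in control libraries. Against those 3 chromosomes the median of chromosome 19 was lower by 0.51 on the log2 scale without selenite and by 0.30 with it. Its plain median log2 fold change with selenite was 0.0040, beside 0.30 for chromosomes 16, 17 and 22 and 0.066 for chromosome 11. Chromosome 11 was not in the ratio, though it has 9.68 protein-coding genes per Mb, against 9.48 on 16 and 8.88 on 22. The size of the gap with selenite thus depends on the chromosomes set beside chromosome 19. DNA copy number was not measured, and its part in the result was not tested.

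**Figure D3:**
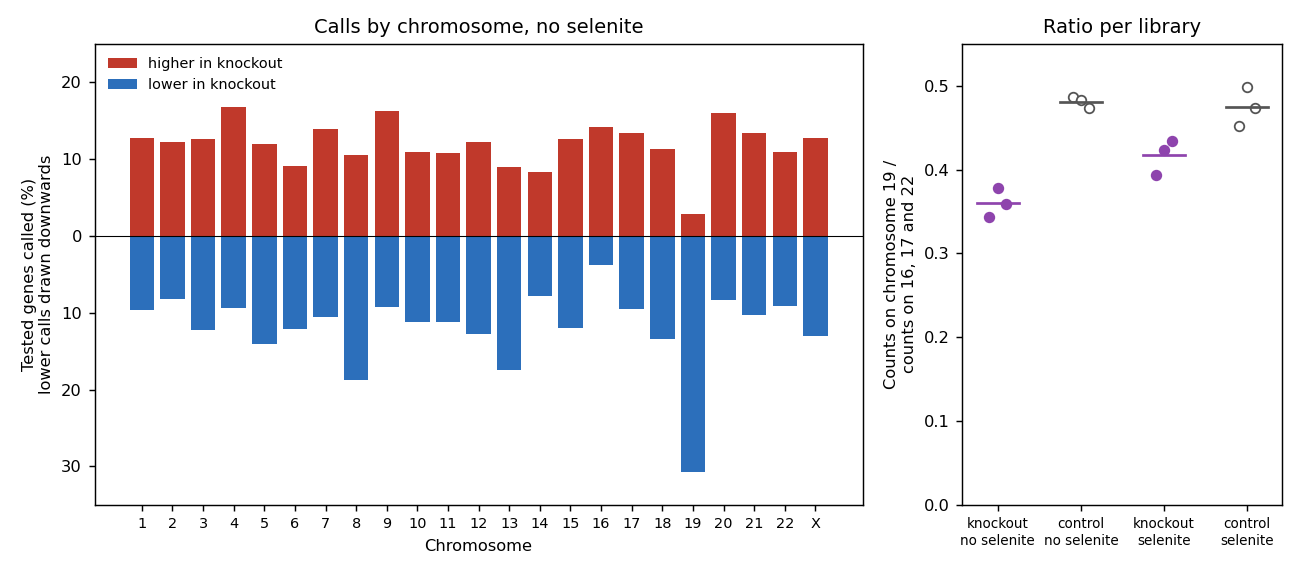
Left, the percentage of tested genes called higher (up) and lower (down) in knockout cells without selenite, by chromosome, with chromosome 19 at 30.7% lower and 2.90% higher. Right, counts on chromosome 19 over counts on chromosomes 16, 17 and 22 in each library, with a line at the group mean: the knockout libraries without selenite lie between 0.344 and 0.378 and their controls between 0.473 and 0.487.

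A second stretch with low medians lay on chromosome 8. There, 3 adjoining runs from POLR2K to DENND3 at chr8:100150636-141195804 had medians of -0.58 to -0.36. The stretch was chosen because these medians were under -0.3, so more falls than rises without selenite follow from that choice. Of its 75 tested genes 31 were lower and 4 higher in knockout cells, with a median of -0.52. With selenite the counts were 39 lower and 4 higher and the median was -0.68. Runs with the highest medians lay on chromosomes 8, 9 and 22, at 0.33 to 0.37.

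Genes on chromosome 19 recur in the groups that follow. These groups are lists of genes by textbook role, chosen with earlier results of these data known, and each is given as the number of tested members called, beside the 11.8% higher and 12% lower over all genes. A member that passed the filter on low counts only through the genotype where it is high had to differ. Such low members are in most of the surface, signalling and transcription factor lists and in some of the others. The members named are among the up to 4 called members with the largest change.

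**Figure D4:**
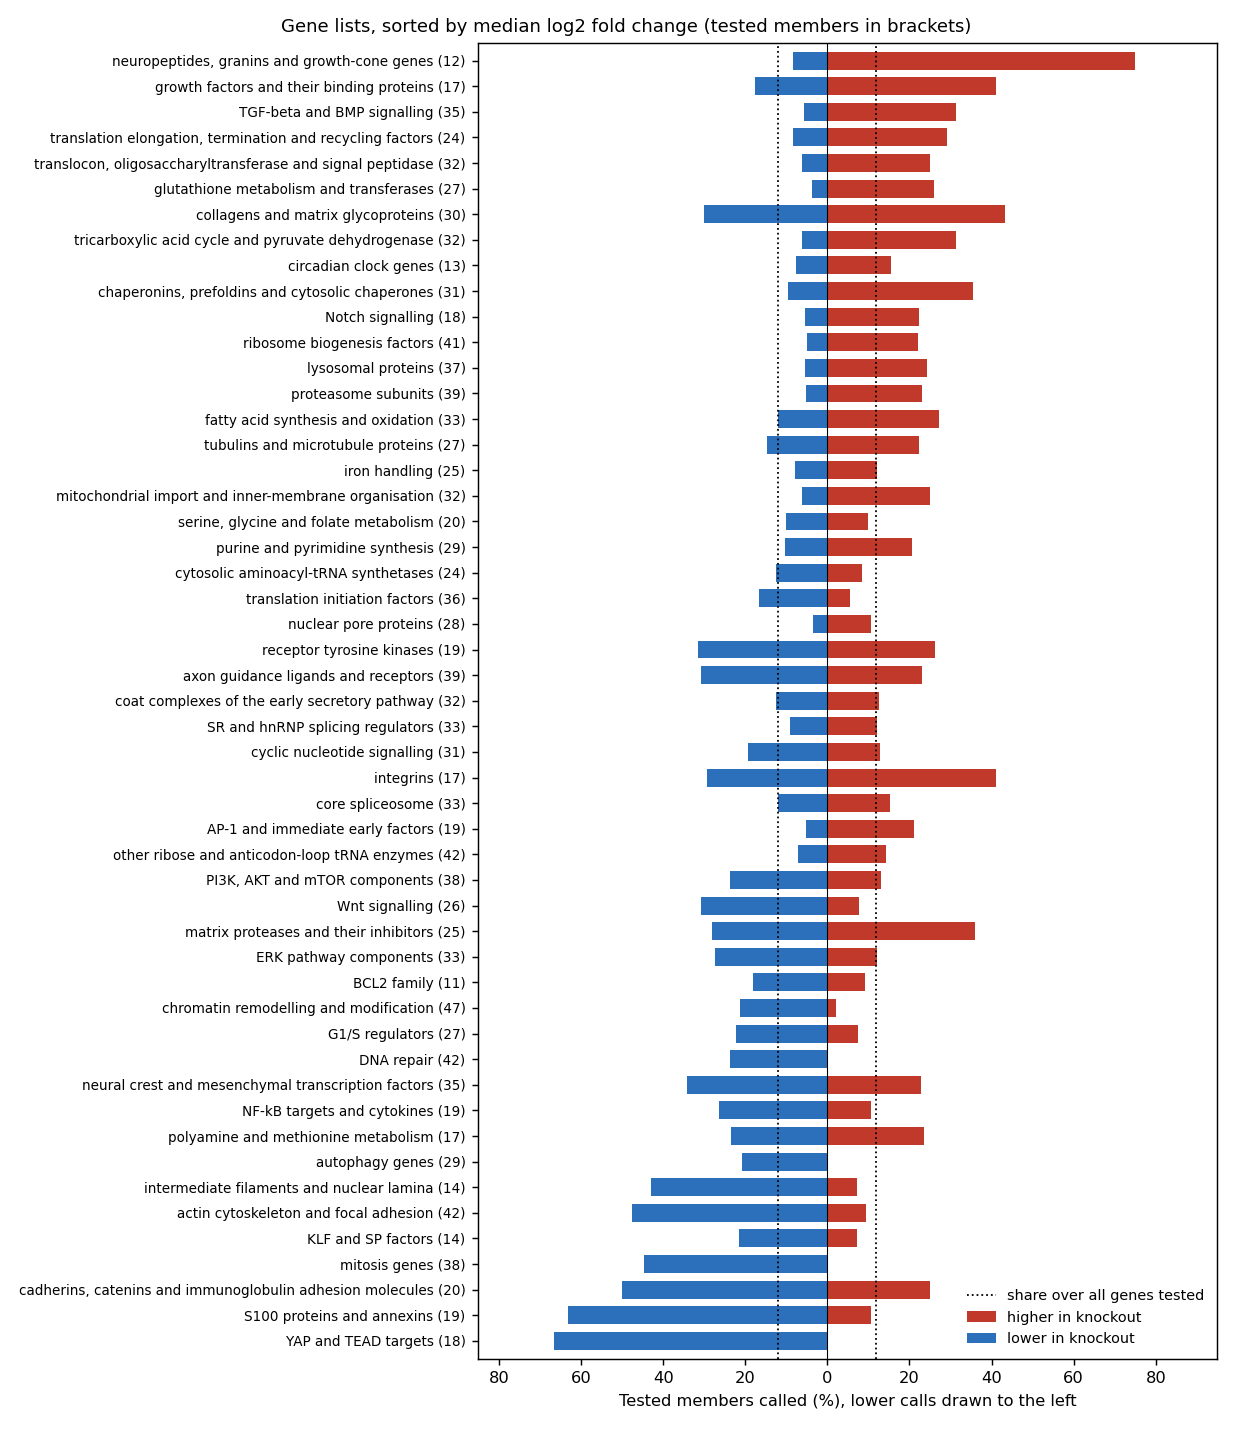
Percentage of tested members called higher (right, red) and lower (left, blue) in knockout cells for each list with at least 11 tested members, sorted by median log2 fold change, with dotted lines at the share over all genes tested. The list of neuropeptides and growth-cone genes is at the top with 9 of 12 higher, and that of YAP and TEAD targets at the bottom with 12 of 18 lower.

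Peptides and proteins that neurons and endocrine cells package for release were the group with the highest median. Of neuropeptides, granins and growth-cone genes, 9 rose and 1 fell of 12 tested, with a median of 2.59 (falls were 0 without knockout replicate 1, 2 or 3 or control replicate 2 or 3). Of 30 genes listed 17 were in the table, and CHGB, UTS2, GAL, GAP43 and SNAP25 averaged under 7.49 CPM in control cells, the level the filter asks for, so they were tested because of other libraries and their part in the count and median is partly set by the filter. The summed level of the list was 2488 to 2964 CPM in knockout and 336 to 366 CPM in control libraries. Most of that sum was VGF, the precursor of several secreted peptides, with 1662, 2223 and 2034 CPM in knockout cells, against 153, 143 and 189 CPM in control cells. UTS2, the urotensin precursor, had 302 counts over the knockout libraries and 1 over the control libraries, a ratio per depth of 326 with a 95% interval of 58.02 to 12908. VGF was thus high in all knockout libraries, and UTS2 was almost absent from control libraries. MAP1B, a microtubule protein of growing axons, had 385, 364 and 372 CPM in knockout cells, against 55.3, 45.02 and 53.9 CPM in control cells. SNAP25, which fuses vesicles with the membrane, had 9.96, 16.2 and 15.5 CPM in knockout cells, against 0.667, 1.45 and 2.84 CPM in control cells. GAP43, a protein of growth cones, had 33.2, 41.5 and 41.95 CPM in knockout cells, against 1.33, 2.905 and 0.709 CPM in control cells. In each of these genes the lowest knockout library exceeded the highest control library. Log2 fold changes were 2.99 ± 0.48 for SNAP25 and 4.48 ± 0.37 for GAP43, or 3.59 and 5.09 without control replicate 3 and 2, in that order.

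The promoter of VGF, read from RefSeq (GRCh38.p14), holds the cyclic-AMP response letters TGACGTCA, shown in capitals 79 bases before its start at chr7:101165621-101165668 on the minus strand. The letters are their own reverse complement, so both strands were searched at once.
VGF: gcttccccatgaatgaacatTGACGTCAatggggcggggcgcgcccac
Among 8710 tested genes with a promoter in the table, 3.18% held these letters in the 250 bases before the start, against 3.63% of those called higher and 3.28% of those called lower.

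Matrix genes and the proteases that cut them moved strongly in both directions. Of collagens and matrix glycoproteins 13 rose and 9 fell of 30 tested, and of matrix proteases and their inhibitors 9 rose and 7 fell of 25 tested. VCAN, the large proteoglycan versican, had 248, 203 and 233 CPM in knockout cells, against 18.001, 24.7 and 26.2 CPM in control cells. COL6A3, a chain of collagen VI, had 16.6 ± 4.11 CPM in knockout cells and 2.07 ± 1.32 CPM in control cells. COL12A1, a fibril-associated collagen, went the other way with 20.6, 25.2 and 24.3 CPM in knockout cells, against 187, 186 and 170.2 CPM in control cells (log2 fold change -2.96 ± 0.16, adjusted p = 3.7e-17). VCAN and COL6A3 were thus higher and COL12A1 lower, with no overlap between the groups. Among the proteases MMP1, the interstitial collagenase, had 505, 394 and 406 CPM in knockout cells, against 4.67, 2.18 and 4.97 CPM in control cells. MMP10, a stromelysin of the same gene cluster on chromosome 11, had 100 counts over the knockout libraries and 2 over the control libraries, a ratio per depth of 53.9 with a 95% interval of 14.5 to 451. Both proteases were at a few counts in control libraries and higher in every knockout library. ADAMTS12, a matrix-bound metalloproteinase, had 4.48 ± 1.52 CPM in knockout cells and 31.5 ± 7.35 CPM in control cells. Summed over each list, matrix genes had 14165 to 14750.1 CPM in knockout and 12962 to 14020 CPM in control libraries, and proteases with their inhibitors 12725 to 14029 and 13271 to 14674 CPM.

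MMP10 rose and FST, the secreted activin antagonist follistatin, fell. The promoter of each holds a match, in capitals, to the AP-1-type letters TGANTCA, in which N was any base. The pattern reads the same on both strands, but a single match does not. The middle base was A in MMP10 and T in FST, so both matches are the same letters read on opposite strands. Neither has C or G in the middle, and binding by AP-1 was not tested. The matches lie 67 bases before the start of MMP10 (chr11:102780669-102780715, minus strand) and 160 bases before that of FST (chr5:53480449-53480495, plus strand), in RefSeq GRCh38.p14.
MMP10: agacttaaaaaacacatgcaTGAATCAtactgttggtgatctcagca
FST: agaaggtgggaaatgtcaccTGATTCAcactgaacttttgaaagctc
FST had 11.95, 18.02 and 17.7 CPM in knockout cells, against 1030.04, 866 and 849 CPM in control cells. The letters occurred in 3.40% of all 8710 promoters, in 3.43% of those called higher and in 4.88% of those called lower.

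Receptors that attach cells to the matrix and to each other changed in both directions within a family. Of integrins 7 rose and 5 fell of 17 tested. ITGA8, an alpha chain of mesenchyme, had 45.8, 32.4 and 32.4 CPM in knockout cells, against 2.67, 6.54 and 5.67 CPM in control cells. ITGA7, a laminin-binding alpha chain, had 22.7 ± 2.46 CPM in knockout cells and 7.97 ± 2.67 CPM in control cells. Both alpha chains were higher in every knockout library than in any control library, and both beta chains lower. ITGB4, the beta chain of hemidesmosomes, had 10.6, 27.9 and 19.1 CPM in knockout cells, against 90.004, 102 and 96.5 CPM in control cells. ITGB8, an activator of latent TGF-beta, had 63.3 ± 5.88 CPM in knockout cells and 225 ± 11.6 CPM in control cells. Of cadherins, catenins and immunoglobulin adhesion molecules 5 rose and 10 fell of 20 tested, with a median of -0.34 (rises were 3 without knockout replicate 1 or 2 or control replicate 1, 2 or 3). CDH19, a cadherin of neural-crest cells, had 54.5, 71.2 and 64.8 CPM in knockout cells, against 226, 251 and 232 CPM in control cells. CDH13, a cadherin anchored by lipid, had 66.6 ± 12.4 CPM in knockout cells and 204 ± 6.97 CPM in control cells, the tetraspanin CD9 107 ± 8.94 CPM in knockout cells and 266 ± 37.6 CPM in control cells and the adhesion molecule ALCAM 28.8 ± 5.58 CPM in knockout cells and 72.1 ± 6.97 CPM in control cells.

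Guidance cues, growth factors and receptor kinases were called in both directions, at shares above the background. Of axon guidance genes 9 rose and 12 fell of 39 tested. SEMA6A, a transmembrane semaphorin, rose with 17.4 ± 1.98 CPM in knockout cells and 3.92 ± 1.604 CPM in control cells, whereas the secreted cues SEMA3D, SLIT2 and NTN4 fell by log2 fold changes of -2.47 ± 0.30, -1.72 ± 0.27 and -2.03 ± 0.46. Of growth factors and their binding proteins 7 rose and 3 fell of 17 tested. IGFBP5, which binds insulin-like growth factors, had 124, 129.8 and 110.4 CPM in knockout cells, against 20.001, 17.4 and 13.5 CPM in control cells, and its relative IGFBP6 had 49.8, 61.3 and 61.1 CPM in knockout cells, against 174, 164 and 146 CPM in control cells, in the opposite order. PDGFD, a ligand of the beta PDGF receptor, had 11.6 ± 0.473 CPM in knockout cells and 1.41 ± 0.737 CPM in control cells. Of receptor tyrosine kinases 5 rose and 6 fell of 19 tested (rises were 3 without control replicate 2). EGFR had 98.9, 88.3 and 105 CPM in knockout cells, against 26.7, 15.2 and 19.9 CPM in control cells. ROR1, a Wnt5a receptor, had 25.8 ± 3.85 CPM in knockout cells and 9.07 ± 3.13 CPM in control cells. EGFR and ROR1 were thus higher in knockout cells, without overlap, and the next receptors were lower. AXL had 53.1, 54.97 and 46.4 CPM in knockout cells, against 233, 217 and 218 CPM in control cells. NGFR, listed with them although it is no kinase, had 4.65, 4.51 and 5.89 CPM in knockout cells, against 86.004, 87.9 and 77.3 CPM in control cells.

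Targets of the transcriptional coactivator YAP and its DNA-binding partner TEAD, which respond to cell spreading and stiffness, formed the list with the lowest median. Of this list, 0 rose and 12 fell of 18 tested, with a median of -0.97, and 0 rose and 11 to 12 fell with any 1 of the 6 libraries left out. Its summed level was 685 to 758 CPM in knockout and 1949 to 2190 CPM in control libraries, groups that lay far apart. CCN1, a matricellular protein, had 33.2, 54.1 and 45.6 CPM in knockout cells, against 203, 206 and 191 CPM in control cells. All knockout libraries lay far below all control libraries for CCN1. AMOTL2, an angiomotin that holds YAP at junctions, had 21.9, 27.03 and 33.1 CPM in knockout cells, against 111, 121 and 138 CPM in control cells. MYOF, the membrane-repair protein myoferlin, had 61.8, 74.8 and 103 CPM in knockout cells, against 329, 397 and 653 CPM in control cells, with a wide spread in control cells (log2 fold change -2.52 ± 0.36, adjusted p = 0.0011). ANKRD1, a nuclear ankyrin-repeat cofactor, was low in both groups, with 3 counts over the knockout libraries and 37 over the control libraries, a ratio per depth of 0.0875 with a 95% interval of 0.0173 to 0.276. AXL, given above, is a member too and the only 1 on chromosome 19.

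TEAD proteins bind the letters GGAATG, which were searched on both strands. They occur in the promoters of ANKRD1 (chr10:90921190-90921327, minus strand) and of CCN2 (chr6:131951442-131951561, minus strand), a matricellular list member that was picked for its promoter after its values were seen. The stretches are from RefSeq GRCh38.p14, with the letters in capitals 220 and 128 bases before the start of ANKRD1 and 169, 104 and 95 bases before that of CCN2.
ANKRD1: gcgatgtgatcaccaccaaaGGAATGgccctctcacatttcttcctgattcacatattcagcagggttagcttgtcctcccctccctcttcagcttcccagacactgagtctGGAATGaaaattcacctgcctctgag
CCN2: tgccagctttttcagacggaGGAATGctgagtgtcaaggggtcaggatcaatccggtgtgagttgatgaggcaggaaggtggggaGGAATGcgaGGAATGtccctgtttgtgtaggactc
CCN2 had 31.9, 31.5 and 41.95 CPM in knockout cells, against 167, 145 and 149 CPM in control cells (log2 fold change -2.12 ± 0.17, adjusted p = 6.5e-12). Of the 12 list members called lower, 9 had a promoter in the table and 3 of these held the letters, against 9.07% of all promoters, 11.4% of those called lower and 8.43% of those called higher. The E-box letters CACGTG (9.09% of all promoters, 10.2% of those called higher and 8.96% of those called lower), the HIF letters ACGTG (24.2%, 23.9% and 23.5%) and the ATF4-type letters TGATGNAA (1.30%, 1.18% and 1.29%) were searched on both strands in the same way, and every E-box match is also a match to ACGTG. Among genes called with at least a 2-fold change, the shares of those higher and those lower were 4.498% and 6.92% for AP-1, 8.65% and 9.51% for TEAD, 2.08% and 1.15% for the cyclic-AMP letters, 8.304% and 8.07% for the E-box, 20.1% and 21.6% for HIF and 1.38% and 1.15% for the ATF4-type letters.

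Genes of BMP, TGF-beta and Notch signalling were higher more often than lower. BMP6, BMP7, TGFBR3, ID3, HEY1, HEY2 and RFNG averaged under the filter level of 7.49 CPM in control cells only. FSTL3 and ACVR2B did so in knockout cells only, so these counts are partly set by the filter. Over all alternative fits rises were 7 to 11 for TGF-beta and BMP genes and 1 to 4 for Notch genes. Of TGF-beta and BMP genes 11 rose and 2 fell of 35 tested, with a median of 0.26. The ligand gene BMP7 had 43 counts over the knockout libraries and 3 over the control libraries, a ratio per depth of 15.5 with a 95% interval of 4.95 to 77.9. BMP2 had 29 counts over the knockout libraries and 2 over the control libraries, a ratio per depth of 15.6 with a 95% interval of 3.96 to 135. ID3, a BMP target that blocks helix-loop-helix factors, had 39.8, 58.6 and 58.1 CPM in knockout cells, against 1.33, 5.08 and 2.84 CPM in control cells, and FST, which binds activins and some BMPs, was described above. Of Notch genes 4 rose and 1 fell of 18 tested (falls were 0 without knockout replicate 3 or control replicate 1). All 4 that rose were the ligand JAG1, with 49.1, 37.8 and 36.1 CPM in knockout cells, against 6.0003, 10.2 and 10.6 CPM in control cells, and the target repressors HES1, HEY1 and HEY2, with log2 fold changes of 1.15 ± 0.27, 1.85 ± 0.36 and 2.22 ± 0.51.

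Wnt genes fell more often than they rose: 2 rose and 8 fell of 26 tested. The related R-spondin receptors moved apart, LGR5 with 17.9, 23.4 and 21.3 CPM in knockout cells, against 6.0003, 3.63 and 2.13 CPM in control cells and LGR4 with 1.99, 3.604 and 5.15 CPM in knockout cells, against 21.3, 15.98 and 20.6 CPM in control cells. The ligand gene WNT10B had 11.9 ± 2.999 CPM in knockout cells and 2.08 ± 0.609 CPM in control cells and the receptor gene FZD4 5.38 ± 2.28 CPM in knockout cells and 16.05 ± 1.699 CPM in control cells. Of NF-kB targets and cytokines 2 rose and 5 fell of 19 tested. TNFAIP3, the deubiquitinase that restrains NF-kB, had 17.6 ± 5.92 CPM in knockout cells and 3.301 ± 1.197 CPM in control cells. In contrast the adaptor TRAF1 had 11.3, 22.5 and 10.3 CPM in knockout cells, against 74.7, 65.4 and 52.5 CPM in control cells, the cytokine IL24 1.33, 1.802 and 0 CPM in knockout cells, against 127, 133 and 133 CPM in control cells and the chemokine CXCL1 1 count over the knockout libraries and 35 over the control libraries, a ratio per depth of 0.0308 with a 95% interval of 0.000759 to 0.183.

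Inside the cell, components of kinase pathways were lower more often than higher. Of ERK pathway components 4 rose and 9 fell of 33 tested (rises were 1 without knockout replicate 1, 2 or 3 or control replicate 3 and 2 without control replicate 1 or 2). DUSP4, a phosphatase of ERK, had 88.98, 121 and 98.6 CPM in knockout cells, against 241, 235 and 215 CPM in control cells, and the exchange factor SOS2 had 11.5 ± 0.877 CPM in knockout cells and 24.3 ± 1.403 CPM in control cells. Of PI3K, AKT and mTOR components 5 rose and 9 fell of 38 tested (rises were 2 without control replicate 2 and 3 without control replicate 1). IRS2, an insulin receptor adaptor, had 27.2, 35.1 and 30.9 CPM in knockout cells, against 88.7, 87.9 and 113 CPM in control cells, the lipid phosphatase INPP4B had 55.5 ± 3.43 CPM in knockout cells and 108 ± 14.2 CPM in control cells. SESN3, a sestrin that restrains mTOR, had 35.2, 35.1 and 31.6 CPM in knockout cells, against 6.67, 6.54 and 4.97 CPM in control cells. Of cyclic nucleotide signalling genes 4 rose and 6 fell of 31 tested (rises were 1 without control replicate 3 and 2 without knockout replicate 1 or control replicate 2), and the abundant scaffold AKAP12, with 464, 417 and 407 CPM in knockout cells, against 1407, 1341 and 1482 CPM in control cells, fell alongside the phosphodiesterases PDE3A (-1.37 ± 0.20) and PDE1C (-1.13 ± 0.14).

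Transcription factors of the neural crest, the embryonic source of pigment cells, were called often in both directions. Of the list 8 rose and 12 fell of 35 tested. MSX1, MSX2, DLX1 and DLX2 averaged under the filter level of 7.49 CPM in control cells only. TFAP2A, FOXD3 and RXRG did so in knockout cells only, so both counts are partly set by the filter. The nuclear receptor RXRG had 7.305, 6.31 and 5.15 CPM in knockout cells, against 40.7, 45.7 and 47.5 CPM in control cells, the crest factor FOXD3 had 4.34 ± 2.05 CPM in knockout cells and 22.7 ± 2.94 CPM in control cells. ZEB2, a zinc-finger factor of crest cells, had 19.3, 16.2 and 8.83 CPM in knockout cells, against 60.7, 74.1 and 78.7 CPM in control cells. All 3 were lower in every knockout library, whereas DLX2 and NES were higher. DLX2, a homeobox factor of the craniofacial crest, had 36.5, 52.3 and 46.4 CPM in knockout cells, against 4.67, 5.81 and 8.51 CPM in control cells. NES, the progenitor intermediate filament nestin that is listed with them, had 1016, 966 and 1089 CPM in knockout cells, against 240.01, 266 and 282 CPM in control cells. The pigment-cell factor MITF had 20.9 ± 0.341 CPM in knockout cells and 52.3 ± 1.03 CPM in control cells. All of these were separated by genotype in every library.

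Early-response and Kruppel-like factors changed in a few members. Of AP-1 and immediate early factors 4 rose and 1 fell of 19 tested, with MYC at 116, 95.5 and 114 CPM in knockout cells, against 14.001, 21.8 and 8.51 CPM in control cells, EGR1 at 48.5 ± 10.3 CPM in knockout cells and 13.2 ± 3.62 CPM in control cells and the orphan receptor NR4A1 at 18.6, 17.1 and 19.1 CPM in knockout cells, against 105, 104 and 97.9 CPM in control cells. Of KLF and SP factors 1 rose and 3 fell of 14 tested (the rise, KLF10, was not called without knockout replicate 1 or 2 or any control replicate). KLF5 had 34.5, 28.8 and 36.8 CPM in knockout cells, against 185, 175 and 184 CPM in control cells and KLF9, a glucocorticoid and thyroid hormone target, 42.7 ± 5.19 CPM in knockout cells and 109.8 ± 7.94 CPM in control cells. Among clock genes BHLHE40, a repressor of the clock, was the member with the largest change, at 43.8 ± 4.87 CPM in knockout cells and 17.3 ± 3.07 CPM in control cells.

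Genes of the actin cytoskeleton and focal adhesions were called lower far more often than higher. Of these, 4 rose and 20 fell of 42 tested, with a median of -0.29, and 2 to 4 rose and 16 to 19 fell with any 1 of the 6 libraries left out (rises were 2 without control replicate 1). The list took 17404 to 19651 CPM in knockout and 21417 to 22097 CPM in control libraries. EZR, the membrane linker ezrin, had 80.4, 58.6 and 69.9 CPM in knockout cells, against 128, 157 and 148 CPM in control cells. ANLN, which bundles actin in the cleavage furrow, had 240.4, 239 and 218 CPM in knockout cells, against 328, 379 and 354 CPM in control cells. Both were lower in every knockout library. FSCN1, which bundles actin in protrusions, rose, with 616, 872 and 783 CPM in knockout cells, against 378, 341 and 311 CPM in control cells. Off chromosome 19 the list counted 4 higher and 17 lower of 39.

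S100 proteins and annexins, calcium-binding proteins that often pair with each other at membranes, were another list in which most members were lower. Of them 2 rose and 12 fell of 19 tested, with a median of -0.59 and none on chromosome 19, and 2 rose and 10 to 12 fell with any 1 of the 6 libraries left out. Together they had 8106 to 8580.1 CPM in knockout and 13817 to 13914 CPM in control libraries. S100A10, the partner of annexin A2, had 679, 649 and 665 CPM in knockout cells, against 1275, 1386 and 1337 CPM in control cells. S100A4, a metastasis-associated member, had 319, 301 and 275 CPM in knockout cells, against 855, 785 and 715 CPM in control cells. Both were lower in every knockout library than in any control library. S100A2 had 10.03 ± 1.52 CPM in knockout cells and 55.6 ± 4.12 CPM in control cells and S100B, a marker of melanoma and glia, 36.8 ± 9.87 CPM in knockout cells and 74.9 ± 5.62 CPM in control cells.

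Other filaments split by type. Of intermediate filaments and lamins 1 rose and 6 fell of 14 tested, with the keratin KRT80 at 20.2 ± 6.695 CPM in knockout cells and 62.6 ± 7.57 CPM in control cells and nestin, above, as the rise. Of tubulins and microtubule proteins 6 rose and 4 fell of 27 tested. MAP1A, a microtubule protein of mature neurons, had 36.1 ± 3.902 CPM in knockout cells and 11.5 ± 2.08 CPM in control cells.

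**Figure D5:**
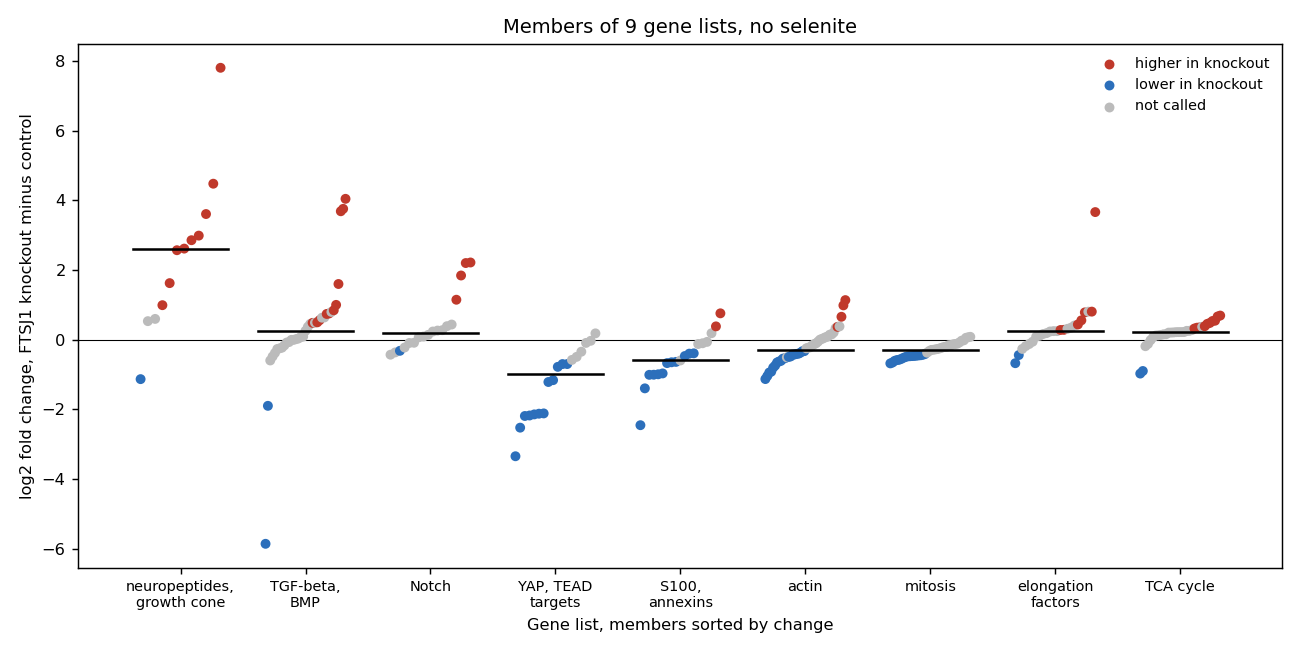
Log2 fold change, knockout minus control, of every tested member of 9 lists, sorted within each list, with a line at the list median. Medians are 2.59 for neuropeptides and growth-cone genes, -0.97 for YAP and TEAD targets, -0.59 for S100 proteins and annexins and -0.31 for mitosis genes.

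The translation machinery showed small changes with few large members. Of elongation, termination and recycling factors 7 rose and 2 fell of 24 tested, with a median of 0.25 (falls were 1 without knockout replicate 1 or 3 or control replicate 2 or 3). Besides EEF1A2, the exchange-factor subunits EEF1B2 and EEF1G had 269 ± 27.99 CPM in knockout cells and 154 ± 15.9 CPM in control cells, and 752 ± 52.7 CPM in knockout cells and 436 ± 34.998 CPM in control cells. Of initiation factors 2 rose and 6 fell of 36 tested, 5.56% and 16.7%, below the background for rises and above it for falls. The helicase EIF4A2 had 26.6, 23.4 and 21.3 CPM in knockout cells, against 63.3, 58.8 and 60.3 CPM in control cells. Its cofactor EIF4B had 236 ± 22.7 CPM in knockout cells and 157 ± 13.1 CPM in control cells. EIF3G, on chromosome 19, had 186 ± 21.01 CPM in knockout cells and 321 ± 25.2 CPM in control cells. The 2 subunits of phenylalanyl-tRNA synthetase went apart, FARSB at 121 ± 0.9703 CPM in knockout cells and 71.7 ± 4.67 CPM in control cells and FARSA, also on chromosome 19, at 258 ± 30.4 CPM in knockout cells and 347 ± 5.42 CPM in control cells, though FARSA was not called without knockout replicate 1. Among tRNA synthetases as a whole 2 rose and 3 fell of 24 tested (falls were 1 without knockout replicate 3 or control replicate 2).

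Enzymes that modify tRNA near the anticodon or on ribose were called about as often as all genes: 6 rose and 3 fell of 42 tested, FTSJ1 included (rises were 3 without knockout replicate 1 or control replicate 2). ELP4, a subunit of the Elongator complex that modifies wobble uridines, had 19.3, 18.02 and 18.4 CPM in knockout cells, against 35.3, 38.5 and 36.2 CPM in control cells. MRM3, a mitochondrial rRNA ribose methyltransferase, had 58.7 ± 2.33 CPM in knockout cells and 36.2 ± 2.94 CPM in control cells. Of ribosome biogenesis factors 9 rose and 2 fell of 41 tested (rises were 5 without knockout replicate 3 or control replicate 3, and falls 1 without knockout replicate 1 or 2 or control replicate 1, 2 or 3), with RRP9, a snoRNP protein, at 83.8 ± 10.9 CPM in knockout cells and 52.4 ± 2.84 CPM in control cells and UBTF, which activates rRNA genes, at 78.4 ± 8.64 CPM in knockout cells and 116 ± 8.56 CPM in control cells.

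Protein folding, degradation and entry into the secretory pathway were higher in part. Of chaperonins and chaperones 11 rose and 3 fell of 31 tested (rises were 5 without knockout replicate 3 or control replicate 1, 6 without knockout replicate 1 or control replicate 3 and 7 without control replicate 2, and falls 1 without knockout replicate 1 or 2). CCT3, a subunit of the chaperonin that folds actin and tubulin, had 1573, 1552 and 1626 CPM in knockout cells, against 992, 998 and 1022 CPM in control cells. HSPA1A and HSPA1B, near-identical HSP70 genes whose reads may be shared, had log2 fold changes of 0.62 ± 0.13 and 0.61 ± 0.13. Of proteasome subunits 9 rose and 2 fell of 39 tested (rises were 3 without knockout replicate 3 or control replicate 3, 4 without knockout replicate 2 or control replicate 2 and 5 without knockout replicate 1), the catalytic subunit PSMB5 at 366 ± 10.8 CPM in knockout cells and 255 ± 16.6 CPM in control cells. Both proteasome genes that fell, PSMC4 at 243 ± 17.6 CPM in knockout cells and 395 ± 11.3 CPM in control cells and PSMD8 at 212 ± 5.67 CPM in knockout cells and 313 ± 9.31 CPM in control cells, lie on chromosome 19.

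Of the translocon, oligosaccharyltransferase and signal peptidase 8 rose and 2 fell of 32 tested, with a median of 0.25. SSR4, a translocon-associated subunit, had 351, 395 and 391 CPM in knockout cells, against 239, 219 and 200.04 CPM in control cells. The subunits of the signal recognition particle receptor went apart, SRPRB at 174 ± 15.2 CPM in knockout cells and 111 ± 12.3 CPM in control cells and SRPRA at 171 ± 13.4 CPM in knockout cells and 244 ± 22.2 CPM in control cells. Of lysosomal proteins 9 rose and 2 fell of 37 tested, with the cholesterol carrier NPC2 at 297, 301 and 261 CPM in knockout cells, against 107, 72.6 and 106 CPM in control cells and the protease CTSB at 244 ± 29.9 CPM in knockout cells and 145 ± 20.6 CPM in control cells. Of autophagy genes 0 rose and 6 fell of 29 tested, with a median of -0.26 (falls were 2 without knockout replicate 2 or control replicate 2 or 3 and 3 without knockout replicate 3), and the cargo receptor NBR1 had 153 ± 7.71 CPM in knockout cells and 238 ± 9.01 CPM in control cells. Coat complexes of the early secretory pathway had 4 of 32 higher and as many lower, shares near the background (rises were 2 without knockout replicate 1 or control replicate 2 or 3, and falls 2 without knockout replicate 1, 2 or 3 or control replicate 1 or 2).

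In metabolism, mitochondrial genes rose more often than they fell. Of the tricarboxylic acid cycle with pyruvate dehydrogenase 10 rose and 2 fell of 32 tested, with a median of 0.22 (rises were 4 without knockout replicate 3 or control replicate 1 and 6 without knockout replicate 2 or control replicate 3). The falls were PDK2, a kinase that inhibits pyruvate dehydrogenase, with 16.8 ± 0.749 CPM in knockout cells and 33.1 ± 5.81 CPM in control cells, and SUCLG2, the GTP-forming subunit of succinyl-CoA ligase, with 116, 97.3 and 109.7 CPM in knockout cells, against 211, 194 and 199 CPM in control cells. Of mitochondrial import and inner-membrane genes 8 rose and 2 fell of 32 tested, with TOMM34 at 235, 225 and 207 CPM in knockout cells, against 126, 123 and 116 CPM in control cells and the HSP70 cofactor GRPEL1 at 223 ± 19.3 CPM in knockout cells and 126 ± 11.2 CPM in control cells. Both that fell, TIMM13 and the protease LONP1 (named after its values were seen), lie on chromosome 19 (falls were 0 without knockout replicate 1 or control replicate 2 and 1 without control replicate 1). Of fatty acid enzymes 9 rose and 4 fell of 33 tested (rises were 5 without knockout replicate 1 or control replicate 2, and falls 1 without knockout replicate 1 or control replicate 1 or 2 and 2 without knockout replicate 3 or control replicate 3), with the desaturase-related FADS3 at 33.6 ± 3.54 CPM in knockout cells and 52.5 ± 1.55 CPM in control cells.

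Of glutathione genes 7 rose and 1 fell of 27 tested, with the glutaredoxin GLRX at 16.6, 18.02 and 18.4 CPM in knockout cells, against 4.67, 7.26 and 7.803 CPM in control cells and ABCC4, an exporter of nucleotides and conjugates, at 157, 114 and 116 CPM in knockout cells, against 68.7, 69.7 and 83.7 CPM in control cells. Purine and pyrimidine synthesis had 6 higher and 3 lower of 29 (rises were 3 without knockout replicate 3, and falls 1 without knockout replicate 2 or control replicate 1 or 2). CTPS1, which makes CTP, had 226, 234 and 241 CPM in knockout cells, against 150.01, 145 and 138 CPM in control cells. Polyamine and methionine genes included ODC1, the first enzyme of polyamine synthesis, at 70.4, 66.7 and 72.9 CPM in knockout cells, against 27.3, 39.9 and 43.3 CPM in control cells, and its downstream enzyme SMS at 249.7, 209 and 249.5 CPM in knockout cells, against 377, 359 and 363 CPM in control cells, which moved apart. GLDC, the glycine decarboxylase, had 4.08 ± 0.66004 CPM in knockout cells and 17.4 ± 4.78 CPM in control cells and the folate carrier SLC19A1 46.6 ± 10.6 CPM in knockout cells and 25.4 ± 1.27 CPM in control cells, in a list with 2 higher and 2 lower of 20 (falls were 1 without knockout replicate 2 or control replicate 1, 2 or 3). Of iron handling genes 3 rose and 2 fell of 25 tested, 12% and 8%, near the background for rises and below it for falls. Rises were 1 without knockout replicate 2, and falls 1 without knockout replicate 3 or control replicate 1.

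Genes of mitosis, G1/S control, DNA repair and chromatin were called lower more often than higher. Of mitosis genes 0 rose and 17 fell of 38 tested, with a median of -0.31 and none on chromosome 19, and 0 rose and 16 to 19 fell with any 1 of the 6 libraries left out. The list took 5600.3 to 6123 CPM in knockout and 7200 to 7662 CPM in control libraries. PRC1, which bundles the central spindle, had 175, 149.6 and 150.2 CPM in knockout cells, against 263, 244 and 253 CPM in control cells. NUSAP1, a spindle-associated protein, had 131, 127 and 130.3 CPM in knockout cells, against 216, 198 and 199 CPM in control cells. CENPF, a kinetochore protein, had 502, 398 and 424 CPM in knockout cells, against 619, 656 and 713 CPM in control cells. As for nearly all called genes, the groups did not overlap for any of the 3, which were lower by 1.601-fold, 1.57-fold and 1.499-fold.

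Among G1/S regulators 2 rose and 6 fell of 27 tested (rises were 1 without knockout replicate 1, 2 or 3 or control replicate 1, 2 or 3). CDKN1C, CDKN2D and E2F8 averaged under the filter level of 7.49 CPM in knockout cells only. The filter thus favours falls in these 3 genes. CDKN1A, a p53-induced inhibitor of cyclin-dependent kinases, had 150.1, 142 and 152 CPM in knockout cells, against 68.7, 74.8 and 68.8 CPM in control cells. CDKN2C, an inhibitor of CDK4 and CDK6, had 11.96 ± 1.24 CPM in knockout cells and 30.8 ± 6.38 CPM in control cells and the retinoblastoma gene RB1 172, 147 and 158 CPM in knockout cells, against 259, 245 and 241 CPM in control cells. Of DNA repair genes 0 rose and 10 fell of 42 tested (falls were 6 without control replicate 3, where 1 rose). The falls included the nuclease subunit ERCC1, on chromosome 19, at 41.5 ± 6.46 CPM in knockout cells and 79.3 ± 14.8 CPM in control cells, and the break sensor MRE11 at 53.5 ± 7.84 CPM in knockout cells and 88.6 ± 2.496 CPM in control cells. Of chromatin genes 1 rose and 10 fell of 47 tested (falls were 5 without knockout replicate 2 and 6 without control replicate 2). The histone deacetylase HDAC9 had 1.33, 0.901 and 1.47 CPM in knockout cells, against 16.001, 13.1 and 12.8 CPM in control cells. JARID2, a partner of the Polycomb complex, had 24.6, 17.1 and 22.8 CPM in knockout cells, against 54.002, 52.3 and 52.5 CPM in control cells. Of BCL2 family genes 1 rose and 2 fell of 11 tested (falls were 1 without control replicate 2), with the death agonist BID at 54.1 ± 5.53 CPM in knockout cells and 32.1 ± 4.89 CPM in control cells.

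RNA processing showed shares near or below the background apart from single genes. Of SR and hnRNP regulators 4 rose and 3 fell of 33 tested (falls were 1 without knockout replicate 2 or 3 or control replicate 3). PTBP2, the neuronal relative of the splicing repressor PTBP1, had 112, 90.1 and 109.7 CPM in knockout cells, against 23.3, 18.9 and 21.3 CPM in control cells (log2 fold change 2.29 ± 0.17, adjusted p = 1.0e-13). MBNL2, a muscleblind regulator, had 16.6, 18.9 and 13.98 CPM in knockout cells, against 31.3, 29.8 and 37.6 CPM in control cells. Of the core spliceosome 5 rose and 4 fell of 33 tested (rises were 3 without control replicate 1), and 3 of the 4 that fell, SF3A2, SNRPD2 and PRPF31, lie on chromosome 19. Of nuclear pore proteins 3 rose and 1 fell of 28 tested (falls were 0 without knockout replicate 1 or 3 or control replicate 2 and 2 without knockout replicate 2), with NUP93 at 192 ± 19.6 CPM in knockout cells and 131 ± 7.97 CPM in control cells.

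The same knockout line was compared with control cells at 30 nM selenite in other libraries. Of the genes called without selenite, 893 of 1240 were also called higher there and 839 of 1261 also called lower, where 21.3% of all genes were called higher and 21.6% lower. The difference between the 2 knockout effects was itself called for 7.45% of genes (780 of 10467, edgeR interaction test). Only 24 genes were called when the 3 shallowest libraries with selenite were left out, which leaves 1 knockout library with selenite. The count was also sensitive to single libraries without selenite: it was 123, 422, 351, 335 and 468 without knockout replicate 1, knockout replicate 3 and control replicates 1, 2 and 3, in that order.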

How the data were processed

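Ribosome footprints of A375 cells were counted per gene. The authors deposited raw counts (whole numbers) for 13074 genes, 16 of them with no count; their normalized table was not used. The submitters' processing notes name Trim Galore 0.6.10, STAR 2.7.9a, DESeq2 and GRCh38, and the counter, annotation and use of the molecular identifiers on the primer are not given in the sources used here. Symbols were matched to RefSeq GRCh38.p14, 12978 directly, 65 as synonyms and 31 not at all.

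All 12 libraries entered 1 model (edgeR 4.0.16, limma 3.58.1, R 4.3.3) with 4 groups, TMM scaling, a robust quasi-likelihood fit and filterByExpr (minimum count 10, minimum total 15), which was checked on simulated data. The standard error is the log2 fold change divided by the square root of F. Whether the libraries of a group stem from different cultures is not in the labels, and the p-values therefore reflect only how far these libraries scatter, which may be technical. Every pair of replicates differed beyond sampling noise.

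Members and all 53 lists were chosen with earlier results of these data known. Named genes are FTSJ1 and its partners, the 20 largest rises and the 20 largest falls (called, mean of at least 10 CPM, groups not overlapping), the 10 most abundant genes called, up to 4 called members of each list by size of change, or 2 by level where none was called, and the 5 tested genes on either side of FTSJ1. Some of them are not reported here. Alternatives were DESeq2 1.42.0, other scaling and filters, a replicate block, thinned counts, fewer libraries, each replicate left out, and no chromosome 19 genes.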

Additional observations from a re-analysis of the deposited data

Results flagged for a closer look

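The knockout effect was measured again in the libraries with selenite, and 29 of the 254 genes named by rule for the comparison without selenite (11.4%, beside 7.45% of all genes tested) differed between the 2 conditions by edgeR's interaction test at an adjusted p under 0.05. Values below are log2 fold changes, knockout minus control, without selenite and then with selenite, followed by the first minus the second. No cause of these differences was tested, and at most 24 of the 780 interaction calls could have been kept without the 3 shallowest selenite libraries, where 24 were made.

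Genes that rose without selenite and had a lower log2 fold change with it were RRAS2 0.72 and -1.22 (difference 1.94), ACSL4 0.58 and -0.20 (difference 0.79), SSR3 0.43 and -0.20 (difference 0.63) and EIF4B 0.59 and 0.034 (difference 0.56). RRAS2, a RAS-related GTPase, ACSL4, which activates long-chain polyunsaturated fatty acids, and SSR3, a translocon-associated subunit, had opposite signs in the 2 conditions.

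Genes that rose without selenite and had a higher log2 fold change with it were CDKN1A 1.07 and 1.83 (difference -0.76), CTSB 0.75 and 1.29 (difference -0.54), FSCN1 1.14 and 1.95 (difference -0.81), HSPA1A 0.62 and 1.32 (difference -0.71), HSPA1B 0.61 and 1.32 (difference -0.70), IMPDH1 0.61 and 1.59 (difference -0.98), NR1D1 0.77 and 1.92 (difference -1.15) and PFAS 0.58 and 1.26 (difference -0.68). IMPDH1 and PFAS are enzymes of purine synthesis and NR1D1 is a clock repressor.

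Genes that fell without selenite and were lower still with it were ANXA1 -0.64 and -1.05 (difference 0.42), AZIN1 -0.56 and -1.40 (difference 0.84), S100A10 -1.004 and -1.62 (difference 0.61) and S100A4 -1.40 and -1.94 (difference 0.54). AZIN1, an activator of polyamine synthesis, lies within the run of low genes on chromosome 8 described above.

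Genes that fell without selenite and were less low, or not low, with it were CSPG4 -1.33 and -0.48 (difference -0.85), DUSP4 -1.17 and -0.50 (difference -0.68), IGFBP6 -1.50 and -0.76 (difference -0.73), IRS2 -1.64 and -0.60 (difference -1.04), S100A6 -0.99 and -0.46 (difference -0.53), SOX10 -0.89 and 0.058 (difference -0.95), TK1 -0.62 and -0.0059 (difference -0.61) and TRAF1 -2.17 and -0.99 (difference -1.18). CSPG4 is a proteoglycan of melanoma cells and TK1 the S-phase thymidine kinase. The identical histone pairs, counted above as 2 genes each, had 1 value each, H2AC18 and H2AC19 -0.36 and 0.12 (difference -0.48) and H4C14 and H4C15 -0.45 and 0.16 (difference -0.61). FTL, the ferritin light chain on chromosome 19, had -0.72 and 0.50 (difference -1.22).

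The calls without selenite of RRAS2 (without any 1 of knockout replicates 1 to 3 or control replicates 1 and 3), SSR3 (knockout replicates 1 and 3, control replicate 3), IMPDH1 (knockout replicates 2 and 3, control replicate 3), NR1D1 (knockout replicate 3, control replicate 3) and FTL (knockout replicate 3, control replicate 1) were lost on leaving out the library named.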

How the results depend on the processing

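The genes called were 1240 higher and 1261 lower. Counts moved by more than 1.5 times with all libraries thinned to the smallest, 679 higher and 711 lower, and with DESeq2 for the lower genes, 816 (840 higher). They were 1400 and 1448 with the 6 libraries alone, 1401 and 1464 without the 3 shallowest selenite libraries, and 1123 and 1144 without chromosome 19 genes, an alternative chosen after seeing the data. Leaving out 1 library gave 902 to 1079 higher and 957 to 1080 lower. With the replicate number as a block the counts were 1406 and 1405, and no named gene lost its call. Deviations of same-numbered libraries correlated at -0.035, 0.14 and 0.11, and those of differently numbered libraries at -0.18 to 0.097. The main fit did not pair the libraries, and whether the numbers pair them cannot be told from these values.

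The interaction count of 780 was 1268 with the replicate block, 437 when thinned, 336 with DESeq2, 24 without the 3 shallowest selenite libraries, and 123 to 951 with 1 library left out. Of 245 named genes called, 154 were called under all 15 alternatives, 29 under each of the fewer alternatives that gave them a value, and 62 lost the call under at least 1, most often when thinned (47) or with 1 library left out (44); 0 turned sign. FTSJ1 was called under every alternative, and the median of chromosome 19 stayed between -0.45 and -0.35. The cause of these shifts was not tested, apart from the lower depth that thinning makes by construction. Limits are the low depth, under which genes of few counts give only wide intervals, 1 knockout line, and no mRNA or DNA measurement beside the footprints. The planned comparison of amino acid composition was not run.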
